A study of Homo sapiens with 2 samples.

Results

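The genes described here are 10 regulators of the G1 checkpoint in cultured human cells that carry the label SK-MEL-2, the name of a skin melanoma line. They were taken by symbol from the 60527 genes of the deposited table, and all 10 symbols were found once. They are the INK4 inhibitors CDKN2A, CDKN2B, CDKN2C and CDKN2D, the KIP inhibitors CDKN1B and CDKN1C, the D-type cyclins CCND1 and CCND3, the retinoblastoma gene RB1, and MTAP, the neighbour of CDKN2A on chromosome 9. The study set 1 culture given 1.75 µM JNJ-7706621 for 48 h against 1 culture given the solvent DMSO. JNJ-7706621 is a small molecule known to inhibit cyclin-dependent and Aurora kinases. Each group had 1 described library, made from total RNA, so no difference below has a replicate check and no test was made.

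In G1, the D-type cyclins bind the kinases CDK4 and CDK6, and the active kinases phosphorylate RB1. Unphosphorylated RB1 holds back the E2F transcription factors, which otherwise drive the genes of S phase. INK4 proteins bind CDK4 and CDK6 and keep the D cyclins off them, while CIP and KIP proteins act mainly on kinases bound to cyclins E and A. CDKN2A encodes p16 and, from another first exon and reading frame, ARF, which protects p53. The locus that holds CDKN2A, CDKN2B and MTAP is among the regions most often deleted in melanoma and other cancers.

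Values are FPKM, counts scaled to exon length and library size, as deposited. Reads behind them were recovered from the values, with library totals of 22817719 reads for JNJ-7706621 and 23377161 for DMSO. Intervals in parentheses are 95% counting intervals of those reads, and they say nothing of the spread between cultures. Markers of the labelled cell type were low. Of 8 melanocyte markers, MITF had 2.27 FPKM with JNJ-7706621 and 2.65 FPKM with DMSO, PMEL had 3.71 and 2.00 FPKM, and the other 6 were under 1 FPKM. TYR and S100B had 0 reads in both libraries, and SOX10 and DCT had 0 with JNJ-7706621 and 1 with DMSO. The summed level of the 8 was 6.25 FPKM with JNJ-7706621 and 4.92 FPKM with DMSO, and that of 6 epithelial markers, KRT8, KRT18 and EPCAM among them, 2269 and 2267 FPKM. These levels go against the melanocyte lineage of the labelled line, and the identity of the cells was not tested. Of 10 markers of fibroblasts, leukocytes and endothelium, 0 had a mean of 1 FPKM, and COL1A2, PTPRC and CD3E had 0 reads in both libraries. Their sums were 0.478 FPKM with JNJ-7706621 and 0.147 FPKM with DMSO for 4 fibroblast markers, 1.25 and 0.675 FPKM for 3 leukocyte markers, all of it CD14, and 0.237 and 0.109 FPKM for 3 endothelial markers. The part of any mix or change of cells in the differences below was not tested, and in such bulk RNA fewer cells of a kind and less RNA per cell cannot be told apart.

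The 10 genes fell into the same 3 ranges of level in both libraries. CDKN2A, CDKN2B and MTAP were at or near 0. CDKN1C was detected at under 1 FPKM. The other 6, CCND1, CDKN1B, CCND3, RB1, CDKN2C and CDKN2D, had at least 1 FPKM in each library on its own, and these 6 passed the filter of a mean of 1 FPKM.

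Of the 6 members that passed the filter, 0 passed the rule of size in either direction, a log2(FPKM + 1) difference, JNJ-7706621 minus DMSO, of at least 1 or at most -1. Over all 13241 genes that passed the filter, 2.39% were past it as higher with JNJ-7706621 and 1.36% as lower. By counting interval, 5 of the 6 had a ratio below 1 and 1 above. Among 13108 genes with recovered reads, 33.2% had an interval below 1 and 32.8% above, so an interval apart from 1 is common at this depth. The median log2 difference of the 6 was -0.47, against -0.0032 over all genes that passed.

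**Figure D1:**
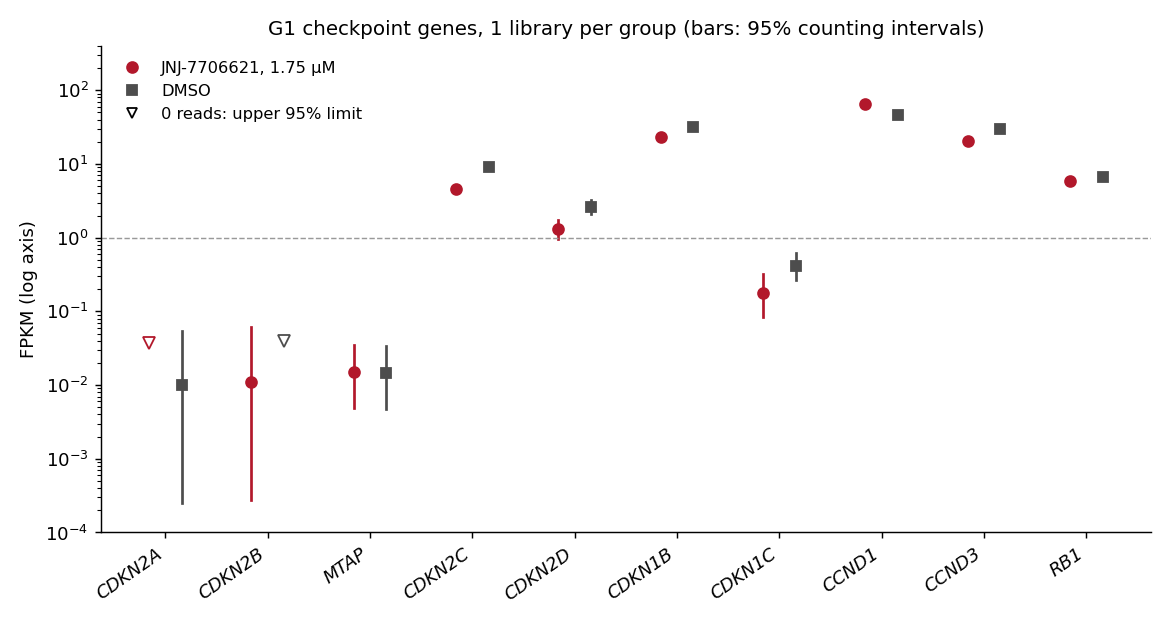
FPKM of the 10 genes on a log axis, JNJ-7706621 (red circles) left of DMSO (grey squares), with 95% counting intervals. Open triangles mark the upper limit of a gene with 0 reads, and the dashed line is 1 FPKM; CDKN2A, CDKN2B and MTAP lie at 0.0151 FPKM or lower in both libraries.

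CDKN2A (ENSG00000147889, chromosome 9, 21967753 to 21995301, minus strand, GRCh38) had 0 reads with JNJ-7706621 and 1 read with DMSO, which is 0.00988 FPKM. For 0 reads the 95% counting interval reaches 0.0373 FPKM, and 3 reads would be 0.0304 FPKM. CDKN2B (ENSG00000147883, chromosome 9, 22002903 to 22009363, minus strand), which encodes p15, the INK4 protein induced by TGF-beta, showed the mirror image, with 1 read or 0.0110 FPKM with JNJ-7706621 and 0 reads with DMSO. MTAP (ENSG00000099810, chromosome 9, 21802543 to 21937651, plus strand), the enzyme that salvages methylthioadenosine from polyamine synthesis, had 5 reads in each library, or 0.0151 FPKM with JNJ-7706621 and 0.0147 FPKM with DMSO. Its ratio of 1.02 had a counting interval from 0.236 to 4.45, so no difference between the libraries was detectable at this depth in any of the 3 genes.

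Reads that fit more than 1 gene can be lost or split in counting, so transcripts were searched for stretches of 50 bases found in another gene. Of all such stretches of CDKN2B, 0.765% also occur in transcripts of another gene, and of CDKN2A 7.16%, mostly in CDKN2B-AS1, which overlaps it on the opposite strand. For MTAP the share was 9.24%, with ERVFRD-3 as the main partner. CDKN2C, CDKN2D, CDKN1B, CDKN1C and RB1 had 0 shared stretches, CCND3 had 0.132%, and CCND1 8.34%, all with its neighbour LTO1. The sources used here do not say whether counting used strand.

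Genes around the silent trio were read in order along chromosome 9. Protein-coding genes with a mean of at least 1 FPKM flanked it on both sides. KLHL9, a ubiquitin ligase adaptor, ends at 21335380 and had 7.62 FPKM with JNJ-7706621 and 10.3 FPKM with DMSO. TUSC1 starts at 25676389 and had 5.17 FPKM with JNJ-7706621 and 6.36 FPKM with DMSO. Between them lie 4.34 Mb with 49 annotated genes that the table lists, 13 of them protein-coding. None of the 13 had a mean of 1 FPKM, and together they had 70 reads with JNJ-7706621 and 56 with DMSO. Genes under this mean were also common in the wider region: from 18 to 28 Mb, 14 of 46 protein-coding genes reached it. The 46 include the 13 between KLHL9 and TUSC1, so the share outside that interval is higher. All 49 genes, noncoding genes and pseudogenes included, had 274 reads with JNJ-7706621 and 383 with DMSO, without MIR31HG, for which no whole reads came out.

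Within the interval the reads were uneven. The interferon pseudogene IFNWP19 had the most, 107 with JNJ-7706621 and 189 with DMSO, or 8.29 and 14.3 FPKM. IFNE, an epithelial type I interferon on the KLHL9 side, came just under the filter with a mean of 0.9999 FPKM, at 1.16 FPKM with JNJ-7706621 and 0.841 FPKM with DMSO. It lies within the span of the noncoding gene MIR31HG, on the same strand, which had 1.39 FPKM with JNJ-7706621 and 1.87 FPKM with DMSO. Exons of IFNWP19 cover 40.7% of the MIR31HG exon bases. On the other side of CDKN2B, DMRTA1, a gene of the DMRT family of transcription factors, had 20 reads with JNJ-7706621 and 14 with DMSO. Further out, IZUMO3 had 0 reads in both libraries and ELAVL2, a neuronal RNA-binding protein, had 5 with JNJ-7706621 and 0 with DMSO.

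CDKN2B-AS1, the long noncoding RNA also called ANRIL, spans CDKN2B on the opposite strand and gave more reads than the 2 INK4 genes it overlaps or adjoins. It had 38 reads or 0.163 FPKM with JNJ-7706621 and 42 reads or 0.176 FPKM with DMSO. The ratio was 0.927 (0.582 to 1.47). Other genes, CDKN2A among them, have exons over 13.8% of its annotated exon bases. AL157937.1, a short noncoding gene starting at 22203990, also lies between KLHL9 and TUSC1. It had 46 reads or 4.55 FPKM with JNJ-7706621 and 81 reads or 7.82 FPKM with DMSO. AL157937.1 was named after its values were seen. Neither gene copies nor DNA methylation were measured, so what lies behind the near absence of CDKN2A, CDKN2B and MTAP was not tested.

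**Figure D2:**
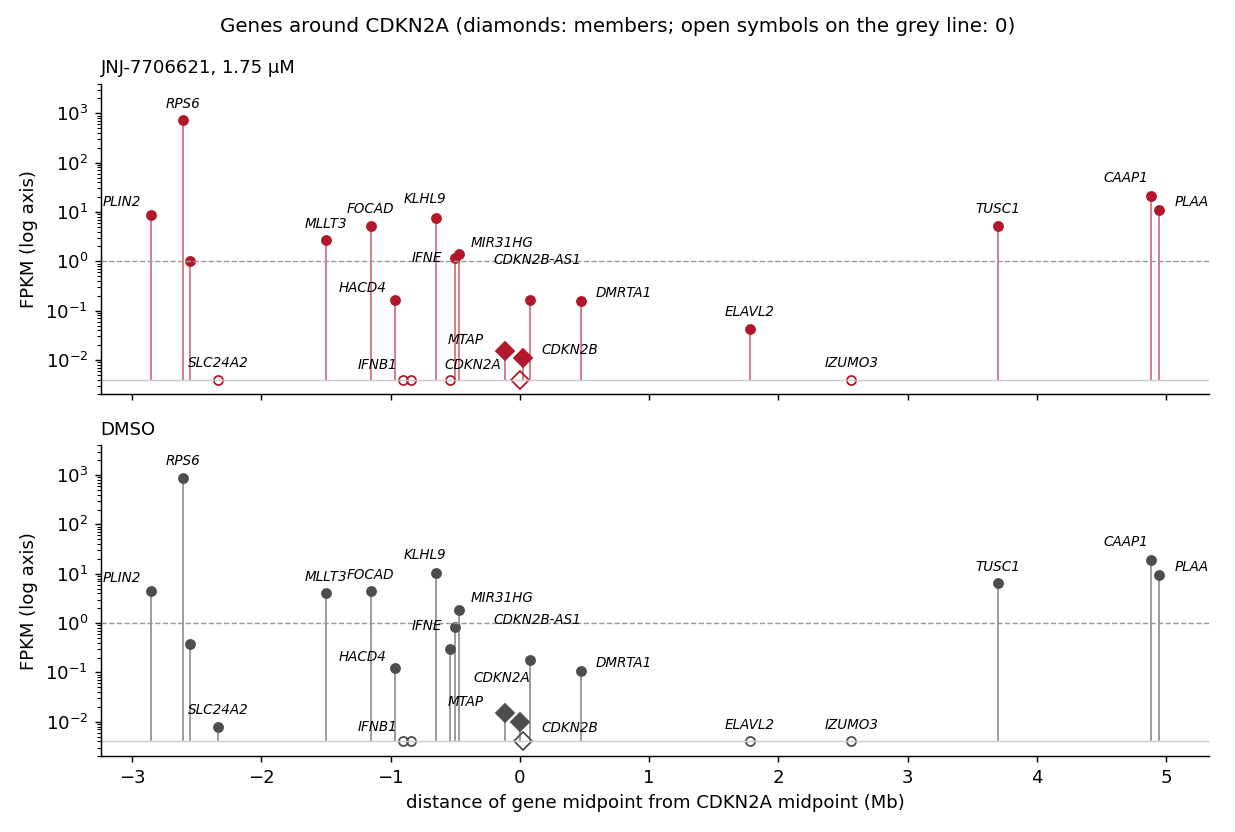
FPKM on a log axis against distance from CDKN2A in Mb, JNJ-7706621 above DMSO, for MTAP, CDKN2A and CDKN2B (diamonds) and 20 listed neighbours (circles). Open symbols on the grey line have 0 FPKM, and the dashed line is 1 FPKM; KLHL9 and TUSC1 stand above it and the 3 members at 0.0151 FPKM or lower; ACER2, IFNA1 and IFNW1 are drawn without a name.

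Of the 20 listed neighbours, 9 had a mean of at least 1 FPKM, and 0 passed the rule of size in either direction. Over all genes that passed the filter, 2.39% were past it as higher and 1.36% as lower. The median log2 difference of the 9 was -0.25. The sign of that median depended on which listed neighbours entered it. It was 0.058 without the filter and 0.13 after rescaling to a common sum, and -0.052 with size factors. The filter was applied after scaling, so scaling also changed which neighbours entered. The lipid droplet gene PLIN2 differed most, at 8.76 FPKM with JNJ-7706621 and 4.39 FPKM with DMSO, a log2 difference of 0.86. ACER2, an alkaline ceramidase whose mean was under 1 FPKM, had 0.55. MLLT3, a subunit of the super elongation complex, had -0.45, and KLHL9 -0.38. IFNA1, also under the filter, had -0.37, on 0 reads with JNJ-7706621 and 6 with DMSO.

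The other INK4 genes, CDKN2C and CDKN2D, were both present, and both stood at about 0.5 times the DMSO level in the JNJ-7706621 library. CDKN2C (ENSG00000123080, chromosome 1, 50960745 to 50974633, plus strand), which encodes p18, had 315 reads or 4.57 FPKM with JNJ-7706621 and 637 reads or 9.03 FPKM with DMSO. The ratio was 0.507 (0.441 to 0.581). CDKN2D (ENSG00000129355, chromosome 19, 10566462 to 10569059, minus strand), which encodes p19 of the INK4 family, had 45 reads or 1.31 FPKM with JNJ-7706621 and 92 reads or 2.61 FPKM with DMSO, a ratio of 0.501 (0.343 to 0.723). Both counting intervals lay below 1, but the log2 differences of -0.85 and -0.65 did not reach the rule of size. Of all genes that passed the filter, 2.29% had a more negative log2 difference than CDKN2C, and 5.18% had one more negative than CDKN2D.

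Summed over the INK4 family, levels were 5.90 FPKM with JNJ-7706621 and 11.7 FPKM with DMSO. CDKN2C made up 77.6% of the sum with JNJ-7706621 and 77.5% with DMSO, and CDKN2D 22.2% and 22.4%. The family thus consisted almost wholly of the same 2 mRNAs, and the share of each was nearly the same in both libraries.

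Promoter windows of the 4 INK4 genes are shown because 2 of these genes were near 0 and the other 2 were lower to a like degree. Each holds 250 bases before and 50 after a RefSeq transcript start on GRCh38.p14, at chr9:21974808-21975107 for the p16 start of CDKN2A, chr9:22009256-22009555 for CDKN2B, chr1:50968456-50968755 for CDKN2C and chr19:10568930-10569229 for CDKN2D. The CDKN2C window is on the plus strand and the others on the minus strand, all written 5′ to 3′ along the gene. Capitals mark GGGCGG, the core of the GC box read by Sp1, on either strand.
CDKN2A: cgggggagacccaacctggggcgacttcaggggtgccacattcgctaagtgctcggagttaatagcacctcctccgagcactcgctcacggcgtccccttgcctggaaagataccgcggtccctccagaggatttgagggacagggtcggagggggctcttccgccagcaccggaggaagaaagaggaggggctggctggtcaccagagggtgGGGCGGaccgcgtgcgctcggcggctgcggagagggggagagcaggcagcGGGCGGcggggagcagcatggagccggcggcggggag
CDKN2B: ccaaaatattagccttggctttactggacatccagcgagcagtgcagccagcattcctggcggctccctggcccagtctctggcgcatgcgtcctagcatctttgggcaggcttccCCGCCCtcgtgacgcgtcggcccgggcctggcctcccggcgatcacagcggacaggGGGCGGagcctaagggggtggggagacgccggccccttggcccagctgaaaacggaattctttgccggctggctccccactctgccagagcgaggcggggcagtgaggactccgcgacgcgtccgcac
CDKN2C: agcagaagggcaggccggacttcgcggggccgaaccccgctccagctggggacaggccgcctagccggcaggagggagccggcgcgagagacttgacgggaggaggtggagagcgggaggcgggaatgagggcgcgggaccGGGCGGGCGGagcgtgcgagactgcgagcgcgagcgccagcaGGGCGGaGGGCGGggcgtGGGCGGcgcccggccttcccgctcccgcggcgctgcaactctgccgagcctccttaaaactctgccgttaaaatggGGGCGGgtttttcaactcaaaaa
CDKN2D: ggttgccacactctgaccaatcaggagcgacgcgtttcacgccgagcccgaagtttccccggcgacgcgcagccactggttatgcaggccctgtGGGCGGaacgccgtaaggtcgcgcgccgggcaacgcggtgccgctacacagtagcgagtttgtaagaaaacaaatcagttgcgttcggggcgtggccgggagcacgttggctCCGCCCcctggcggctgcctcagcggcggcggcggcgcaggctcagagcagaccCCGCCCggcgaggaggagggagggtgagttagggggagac

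CpG dinucleotides numbered 26 in the CDKN2A window, 25 in CDKN2B, 37 in CDKN2C and 36 in CDKN2D, against a median of 14 over 35116 windows of this length. The GC box occurred 2 times in each of CDKN2A and CDKN2B, 6 times in CDKN2C, where 2 copies overlap, and 3 times in CDKN2D. It is a common motif, found in 45.0% of all windows. The other RefSeq windows of these genes held fewer copies: 0 with 28 CpG at the ARF start of CDKN2A, and 0 with 8 CpG and 1 with 11 CpG at the other starts of CDKN2C. For CDKN2C the window with the most CpG is the one shown, chosen after these counts were seen. The E2F words TTTCCCGC, TTTGGCGC, TTTCGCGC and TTTGCCGC were in 0 of the 13 windows that RefSeq gives for 8 of the members, on either strand, and in 3.31% of all windows. TATAAA was in 1 of the 13, that of MTAP, and in 11.5% of all windows. The RB1 window starts at an internal transcript start, and no window was used for CCND1 or CDKN1C.

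The KIP inhibitors were lower in the JNJ-7706621 library as well. CDKN1B (ENSG00000111276, chromosome 12, 12715058 to 12722371, plus strand) encodes p27, which rises when cells leave the cycle and is degraded through SKP2. It had 1374 reads or 23.5 FPKM with JNJ-7706621 and 1885 reads or 31.4 FPKM with DMSO, a ratio of 0.747 (0.696 to 0.801) and a log2 difference of -0.41. CDKN1C (ENSG00000129757, chromosome 11, 2883213 to 2885773, minus strand) encodes p57 and is imprinted, with expression from the maternal copy. It had 10 reads or 0.177 FPKM with JNJ-7706621 and 24 reads or 0.414 FPKM with DMSO. Its ratio of 0.427 (0.182 to 0.926) rests on few reads.

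CDKN1A, the p53-induced inhibitor p21 and the remaining member of the CIP/KIP family, stood at 88.3 FPKM with JNJ-7706621 and 32.9 FPKM with DMSO. The family sum was therefore higher, at 112 FPKM with JNJ-7706621 and 64.7 FPKM with DMSO, a ratio of 1.73. CDKN1A made up 78.9% of that sum with JNJ-7706621 and 50.8% with DMSO, and CDKN1B 20.97% and 48.6%. In the DMSO library the 2 mRNAs were thus close to level, and in the JNJ-7706621 library p21 mRNA was in excess of p27 mRNA. CDKN1C stayed below 1% of the sum in both.

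Neighbours of CDKN1C on chromosome 11, in a region with imprinted genes, were listed as well. Of 10 neighbours 7 had a mean of at least 1 FPKM. Among the 7, 0 passed the rule of size, beside 2.39% higher and 1.36% lower over all genes that passed the filter. The median log2 difference of the 7 was 0.02, or 0.15 over the neighbours with a mean of 5 FPKM. H19, the maternally expressed noncoding RNA, had 11.7 FPKM with JNJ-7706621 and 21.6 FPKM with DMSO, a log2 difference of -0.84. PHLDA2, also expressed from the maternal copy, had the opposite sign, with 13.2 FPKM with JNJ-7706621, 8.32 FPKM with DMSO and a log2 difference of 0.61. CD81 had 0.46, SLC22A18 -0.43 and NAP1L4 0.27.

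Among the D-type cyclins the 2 detected genes differed in opposite directions. CCND1 (ENSG00000110092, chromosome 11, 69641087 to 69654474, plus strand), the cyclin most responsive to growth factor signals, had 7233 reads or 65.6 FPKM with JNJ-7706621 and 5151 reads or 45.6 FPKM with DMSO. The ratio was 1.44 (1.39 to 1.49), with a log2 difference of 0.52. CCND3 (ENSG00000112576, chromosome 6, 41934933 to 42050357, minus strand) had 2696 reads or 20.4 FPKM with JNJ-7706621 and 4049 reads or 29.9 FPKM with DMSO, a ratio of 0.682 (0.649 to 0.716) and a log2 difference of -0.53. CCND2 had 0 reads in both libraries.

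The sum of D cyclin mRNA differed less between the libraries than either part. It was 86.0 FPKM with JNJ-7706621 and 75.5 FPKM with DMSO, a ratio of 1.14. CCND1 made up 76.3% of it with JNJ-7706621 and 60.4% with DMSO. The partner kinases differed in the same opposing way: CDK4 had 51.7 FPKM with JNJ-7706621 and 43.2 FPKM with DMSO, and CDK6 4.57 and 6.39 FPKM. For CDK4, 43.2% of exon bases also lie in exons of TSPAN31, and for CCND1 10.3% in exons of LTO1. How reads there were counted was not tested.

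RB1 (ENSG00000139687, chromosome 13, 48303726 to 48599436, plus strand) differed least among the 6 well-detected members. It had 854 reads or 5.80 FPKM with JNJ-7706621 and 1015 reads or 6.73 FPKM with DMSO, a ratio of 0.862 (0.786 to 0.945) and a log2 difference of -0.18. Its relatives RBL1 and RBL2, the pocket proteins p107 and p130, had 3.69 and 7.03 FPKM with JNJ-7706621 and 4.11 and 10.1 FPKM with DMSO. RBL2, the pocket protein of resting cells, had a log2 difference of -0.47. Exons of AKTIP and AC007342.6 cover 18.2% of RBL2 exon bases. RB1 made up 35.1% of the sum of the 3 with JNJ-7706621 and 32.1% with DMSO, and the ratio of the sums was 0.788.

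**Figure D3:**
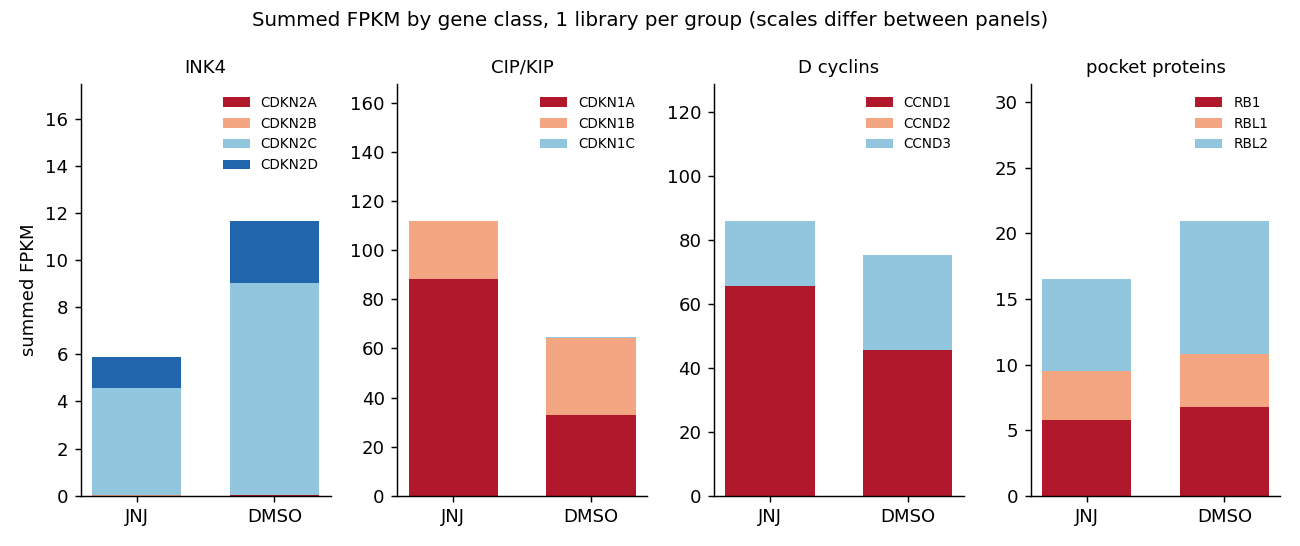
Summed FPKM of 4 gene classes, JNJ-7706621 left of DMSO, with each gene as a coloured part of the bar; scales differ between panels. The INK4 bar is 5.90 FPKM with JNJ-7706621 and 11.7 FPKM with DMSO, and the CIP/KIP bar 112 and 64.7 FPKM, where CDKN1A makes up 78.9% and 50.8%.

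Levels per length can be set in order, since FPKM divides by exon length. With JNJ-7706621 the order of levels was CCND1, CDKN1B, CCND3, RB1, CDKN2C, CDKN2D, CDKN1C and MTAP. With DMSO it was the same except that CDKN2C stood above RB1, at 9.03 and 6.73 FPKM. Counting intervals of neighbours overlapped for CDKN1B and CCND3 with DMSO, and among MTAP, CDKN2A and CDKN2B in both libraries. The other neighbours in these orders had intervals apart. With JNJ-7706621, CDKN2C at 4.57 FPKM (4.08 to 5.11) lay below RB1 at 5.80 FPKM (5.42 to 6.20).

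The wider pathway was described from lists of the kinases, E2F factors and targets around RB1. Of 11 G1 kinases, cyclins and CDKN1A, 10 passed the filter. Among these, 3 were past the rule of size as higher and 0 as lower, with a median log2 difference of 0.23. The 3 were CDKN1A at 1.40, CDK2 at 1.13 and CCNE1 at 1.02. Over all genes that passed the filter, the shares were 2.39% as higher and 1.36% as lower, and the median was -0.0032. Exons of AC025162.1 and PMEL cover 16.8% of CDK2 exon bases. CCNE1 encodes cyclin E1, the activator of CDK2 at the entry to S phase, and had 10.6 FPKM with JNJ-7706621 and 4.69 FPKM with DMSO. CDK7, of the kinase complex that activates other cyclin-dependent kinases, had a log2 difference of 0.39 and CDK6 -0.41.

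Of 17 pocket protein partners and E2F genes, 15 passed the filter, and their median was 0.19. Among the 15, 0 were past the rule of size, beside 2.39% higher and 1.36% lower over all genes that passed. The activator E2F genes had the largest differences. E2F1 had 17.8 FPKM with JNJ-7706621 and 9.03 FPKM with DMSO, a ratio of 1.97 (1.78 to 2.19). E2F2 had 4.30 and 1.91 FPKM and E2F3 7.11 and 4.22 FPKM, with log2 differences of 0.86 and 0.64. Their DNA-binding partner TFDP1 had 0.49.

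Of 19 listed E2F target genes, all passed the filter and 18 had a positive log2 difference, against 6573 of all 13241 genes that passed. The list was chosen with earlier results of these data known, so these counts are a description only. It shares CCNE1, CCNE2, CDC25A, E2F1 and RBL1 with the other lists. Of the 19 targets, 4 were past the rule of size as higher and 0 as lower, where the shares over all genes were 2.39% and 1.36%. The median log2 difference was 0.74, and 17 had a counting interval above 1, as had 32.8% of all genes. CDC25A, a phosphatase that activates CDK2, had 6.37 FPKM with JNJ-7706621 and 1.76 FPKM with DMSO, a log2 difference of 1.41. The replication helicase subunit MCM2, with 23.6% of its exon bases in exons of other genes, had 1.09, CCNE1 1.02 and MCM4 0.92. RBL1 was the 1 target below 0, at -0.12, with a ratio of 0.897 (0.794 to 1.01).

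**Figure D4:**
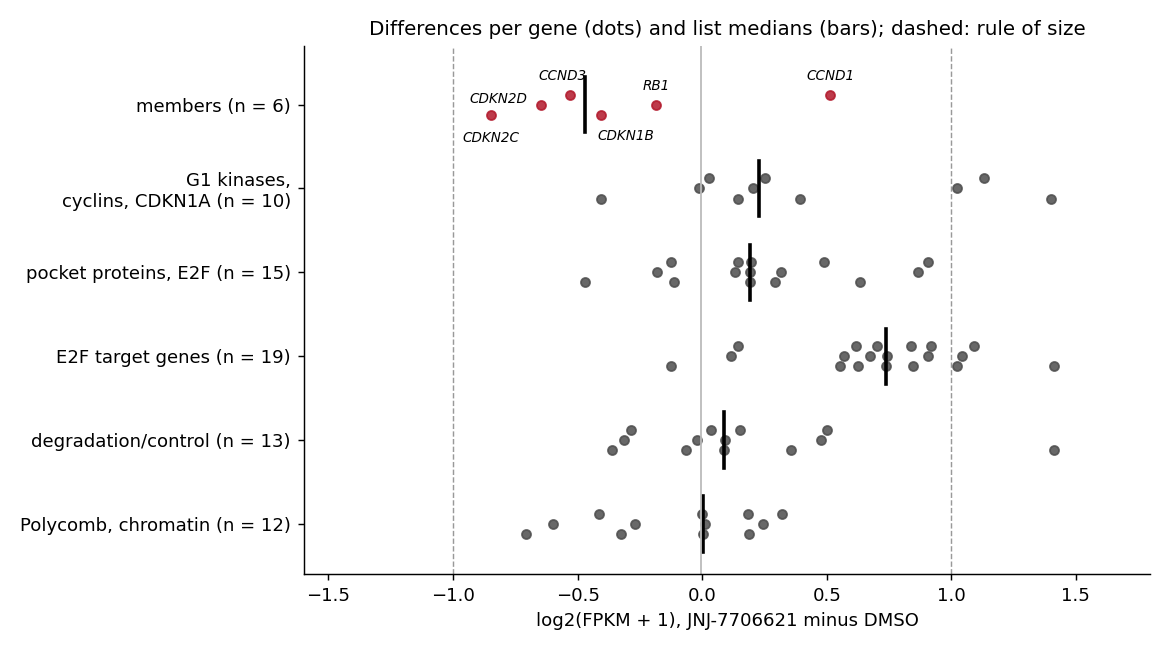
Log2(FPKM + 1) difference, JNJ-7706621 minus DMSO, of each gene that passed the filter (dots) with the median of its list (bars); dashed lines at -1 and 1 mark the rule of size. All 6 members lie inside the dashed lines with 5 below 0, while the 19 E2F target genes have a median of 0.74.

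Genes listed for degradation and control of cyclins and KIP proteins had a median of 0.09 over 13 members. The phosphatase CDC25A alone was past the rule of size, beside 2.39% higher and 1.36% lower over all genes that passed the filter. SKP2, which marks p27 for degradation, had 7.66 FPKM with JNJ-7706621 and 5.22 FPKM with DMSO, a ratio of 1.47 (1.30 to 1.66). Its cofactor CKS1B had a log2 difference of 0.36 and AMBRA1, an adaptor in the degradation of D cyclins, 0.50. GSK3B, a kinase that phosphorylates cyclin D1, had -0.36.

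Polycomb and chromatin regulators of the INK4 genes had a median of 0.0032 over 12 members. Over those with a mean of at least 5 FPKM the median was -0.32. Among the 12, 0 were past the rule of size, beside 2.39% higher and 1.36% lower over all genes that passed the filter. CBX8, a chromobox protein of Polycomb complex PRC1, had 1.94 FPKM with JNJ-7706621 and 3.46 FPKM with DMSO, a ratio of 0.561 (0.466 to 0.674) and a log2 difference of -0.60. EZH2, the methyltransferase of Polycomb complex PRC2, had -0.41, RING1 -0.32 and CBX2 0.32.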

How the data were processed

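RNA sequencing values of 2 samples were used, 1 given JNJ-7706621 and 1 given DMSO, grouped by the treatment in the labels. Values per gene were used as deposited, and the name of the deposited table gives them as FPKM. Both hg38 and edgeR appear, without a role, in the submitters' processing notes. For the aligner, counter, annotation and strand setting, a name is not given in the sources used here. Of 4 value columns, 2 have names that end in 2 and match no sample described here, where the used columns end in 1. They were not used, and whether they hold further cultures of the same groups was not tested.

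Library totals were taken as the most frequent whole total among genes read as 1 read, with exon lengths from GENCODE release 29. Reads are FPKM times exon length times total, and came out for 27805 of 28014 genes above 0. For 17325 genes the annotated length gave whole reads within 0.0001, and for 10480 the nearest length within 0.25 to 4 times the annotated one did. For CDKN2B, CDKN2C, CDKN2D, CDKN1B and MTAP the nearest length was taken. Intervals are exact 95% Clopper-Pearson for ratios and exact Poisson for levels. Intervals and the floor of 3 reads cover counting error only.

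Differences use log2(FPKM + 1), which understates low genes, on genes with a mean of at least 1 FPKM. With 1 library per group no test was run. Alternatives were pseudocounts of 0.1 and 0.5, no filter, a mean of 5 FPKM, rescaling to a sum of 1000000 and size-factor scaling. Named are all members, CDKN1A, CCND2, CDK4, CDK6, E2F1, RBL1, RBL2 and up to 5 genes per list with the largest differences; others were named after their values were seen, and some items the rule would name are not reported here. With 2 libraries no gene was named for a like pattern. Promoter windows are RefSeq's, on GRCh38.p14. Members and lists were chosen with earlier results of these data known. Calculations ran in Python 3.11.15 with SciPy 1.17.1 and were tested on simulated libraries. The simulation used annotated lengths throughout, so it did not test the search for the nearest length.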

Additional observations from a re-analysis of the deposited data

How the results depend on the processing

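The filters choose genes and leave each gene's difference as it is. Under the other 4 alternatives, 32 of 40 values of the 10 members lay inside the main counting interval, 0 reversed and 0 passed the rule of size. The others were genes of low level: with a pseudocount of 0.1 the log2 difference was -0.94 for CDKN2D, -0.89 for CDKN1C, -0.14 for CDKN2A and 0.15 for CDKN2B. With a pseudocount of 0.5 it was -0.43 for CDKN1C and -0.028 for CDKN2A, and after rescaling -0.48 and -0.032.

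Counts past the rule of size moved more, from a main 316 higher and 180 lower. They were 608 and 409 with a pseudocount of 0.1, 274 lower with 0.5, 145 and 75 with a mean of 5 FPKM, and 714 and 478 after rescaling. Among pocket protein and E2F genes 1 was higher with a pseudocount of 0.1. Among the genes of degradation and control 0 were higher with a mean of 5 FPKM, which leaves out CDC25A. The median of the 9p21 neighbours was -0.25, but 0.058 without the filter and 0.13 after rescaling. It was -0.057 with a mean of 5 FPKM and -0.052 with size factors. The filter was applied after scaling, so each of these settings changed which neighbours entered that median. With a mean of 5 FPKM the Polycomb median was -0.32 and that of the CDKN1C neighbours 0.15. Without the filter the median of the members was -0.22, with the near-silent genes in it. No paired analysis was possible because each group has 1 library. At 0 to 24 reads, CDKN2A, CDKN2B, MTAP and CDKN1C are limited by depth.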
